A study of Mus musculus with 6 samples.

Results

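The 10 genes described here encode CCN proteins and the YAP/TEAD transcription factors. They were taken by symbol from the 46983 genes listed for mouse aortic valves, and all 10 were found and tested. The CCN proteins are encoded by Ctgf, Cyr61, Nov, Wisp1 and Wisp2, the coactivators YAP and TAZ by Yap1 and Wwtr1, and the DNA-binding partners by Tead1, Tead2 and Tead3. RNA was sequenced from the valves of wild type C57BL/6J mice, in 3 libraries of postnatal day 2 (PND2) and 3 of mice 4 months old. A library was a pool of 5 to 6 animals, so the spread between libraries is a spread between pools. Age is the only difference that the labels give, and they name no treatment. The comparison asks how these genes differ between valves that are still remodelling after birth and mature valves. Library totals, inferred from the smallest exon values above 0, ran from 23810507 to 38994657 reads. The recovered reads on genes summed to 55069102 to 90673545 per library, more than these totals, and why was not examined. Both are therefore read as relative units. In them, the fewest reads on any of the 10 genes in any library was 555, for Wisp1, so low counts limited none of the gene values.

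CCN proteins are secreted, matrix-associated signalling proteins that bind integrins, heparan sulfate proteoglycans and LRP receptors, and they modulate adhesion, matrix deposition and growth factor signals. YAP and TAZ are coactivators that shuttle between cytoplasm and nucleus. When the Hippo kinases phosphorylate them they are held in the cytoplasm or degraded, and when they are not phosphorylated they enter the nucleus and bind TEAD factors, which recognise DNA. Ctgf and Cyr61 are the best known genes switched on by this complex, and mechanical load and cell spreading are well known to activate it. In bulk tissue, a lower level of an mRNA can mean fewer cells of a type or less RNA per cell, and these cannot be told apart.

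TEAD factors recognise the core GGAATG, which reads CATTCC on the other strand, and the 250 bases before the annotated starts were searched for it on both strands. RefSeq promoter sequences (GRCm38.p6) were matched for 5 of the 10 genes, namely Cyr61, Yap1, Wwtr1, Tead2 and Tead3. Some genes have several annotated starts, so the 5 genes have 8 windows, and 6 of these held the core. They belong to 4 of the genes, and the letters were not found for Tead2. Of all 32851 promoter windows of the same length, 4153 (12.6%) held it. A match describes the letters and does not show that a factor binds there. The serum response (CArG) box was found in 1.47% of all windows and in 0 of the 5 genes. For each of these 4 genes the most upstream window is given, to show where the core lies in a target gene and in genes of the complex itself. They are written 5′ to 3′ on the strand of the gene, with the core in capitals. The windows are those of Cyr61 (chr3:145649986-145650235, minus strand), Yap1 (chr9:8004597-8004846, minus strand), Wwtr1 (chr3:57575911-57576160, minus strand) and Tead3 (chr17:28350806-28351055, minus strand). In these windows the core lay 103, 141, 136 and 182 bases before the start, respectively. Seen from a second start of Wwtr1 the same core lay at 170 bases. A second start of Tead3 had cores at 123 and 114 bases, and the third had none.
Cyr61: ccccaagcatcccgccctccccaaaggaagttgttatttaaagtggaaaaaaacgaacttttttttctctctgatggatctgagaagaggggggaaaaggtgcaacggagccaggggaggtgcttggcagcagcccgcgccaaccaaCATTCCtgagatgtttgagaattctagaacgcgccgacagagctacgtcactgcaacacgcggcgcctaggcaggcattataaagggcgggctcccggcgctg
Yap1: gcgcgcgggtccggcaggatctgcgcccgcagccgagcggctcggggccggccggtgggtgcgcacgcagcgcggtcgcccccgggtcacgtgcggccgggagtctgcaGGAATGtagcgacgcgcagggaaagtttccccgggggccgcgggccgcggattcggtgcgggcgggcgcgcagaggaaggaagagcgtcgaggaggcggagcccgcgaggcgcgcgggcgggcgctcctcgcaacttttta
Wwtr1: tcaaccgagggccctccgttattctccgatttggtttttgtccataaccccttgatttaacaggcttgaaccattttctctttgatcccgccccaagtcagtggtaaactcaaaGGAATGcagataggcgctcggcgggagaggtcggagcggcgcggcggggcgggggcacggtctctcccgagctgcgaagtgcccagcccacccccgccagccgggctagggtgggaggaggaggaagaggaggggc
Tead3: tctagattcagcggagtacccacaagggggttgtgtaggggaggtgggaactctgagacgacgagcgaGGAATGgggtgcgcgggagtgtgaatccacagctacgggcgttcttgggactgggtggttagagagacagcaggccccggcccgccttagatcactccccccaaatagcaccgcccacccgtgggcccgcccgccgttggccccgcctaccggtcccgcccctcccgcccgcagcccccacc

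Levels are given as RPKM, reads divided by exonic length and by library total, as deposited. Changes are log2 fold changes of log2(RPKM + 0.1) from limma, 4 months minus PND2, with Benjamini-Hochberg adjustment over all 25903 genes tested, and a gene was called at an adjusted p under 0.05. By this rule 6 of the 10 genes differed between the ages. Ctgf, Cyr61 and Nov were higher at 4 months, and Wisp1, Tead1 and Tead2 were lower. Over all genes tested 35.8% were called, with 14.7% higher and 21.1% lower at 4 months. The median log2 fold change was 0.05 over the 10 genes and -0.14 over all genes. When each library was scaled by its median log2 ratio instead, the median of all genes moved by 0.12 to -0.02, and 52.7% of the called genes were higher against 41.1%. Under this scaling the same number of the 10 genes rose and fell, 3 each, and none changed direction. The plot of levels by gene shows the 6 libraries side by side.

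**Figure D1:**
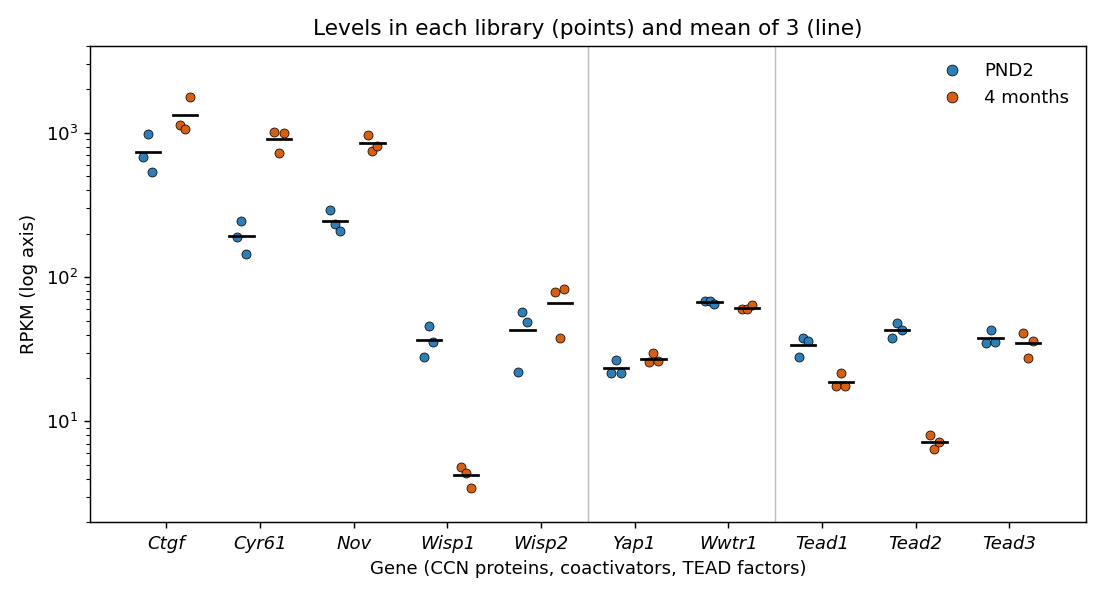
RPKM on a log axis for each of the 10 genes in the 3 libraries of PND2 and the 3 of 4 months, with points for libraries and lines for means of 3. The ages separate clearly for Cyr61, Nov, Wisp1 and Tead2, while those of Wisp2, Yap1 and Tead3 overlap.

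Among the CCN genes, Cyr61 and Nov rose at 4 months and Wisp1 fell, whereas Ctgf was higher by a margin that depended on single libraries and Wisp2 did not pass the test. Cyr61 (ENSMUSG00000028195, chr3:145646976-145649981 in mm10, minus strand) encodes an angiogenic matricellular protein. Its levels were 190, 243 and 144 RPKM in the PND2 libraries and 1009, 728 and 1001 RPKM in those of 4 months. Every library of 4 months was above every library of PND2. The mean went from 192 ± 49.4 (SD, n = 3) to 913 ± 160 RPKM, a 4.74-fold difference. The log2 fold change was 2.26 (standard error [SE] 0.22, 95% confidence interval 1.75 to 2.77, limma adjusted p = 0.0004).

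Nov (ENSMUSG00000037362, chr15:54745702-54754039, plus strand) encodes a CCN protein known to restrain proliferation in several cell types. It was at 291, 235 and 209 RPKM at PND2 and at 971, 746 and 813 RPKM at 4 months. The ages were separated by a wide gap. Its mean rose 3.44-fold from 245 ± 41.8 to 843 ± 115 RPKM, and its log2 fold change was 1.79 (SE 0.16, interval 1.41 to 2.16, limma adjusted p = 0.00032).

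Ctgf (ENSMUSG00000019997, chr10:24595442-24598683, plus strand), a profibrotic protein and one of the most used readouts of YAP activity, had the highest level of the 10 genes at both ages. It stood at 677, 985 and 537 RPKM at PND2 and at 1125, 1060 and 1779 RPKM at 4 months. The ages did not overlap, but the highest PND2 library lay close to the lowest of 4 months. The mean was 733 ± 229 RPKM at PND2 and 1321 ± 398 RPKM at 4 months, a 1.80-fold difference. The log2 fold change was 0.86 (SE 0.28, interval 0.20 to 1.51, limma adjusted p = 0.0493). This call held without PND2 replicate 2 (limma adjusted p = 0.0256) and was lost without any other single library. The limma adjusted p was then 0.111 without PND2 replicate 1, 0.151 without PND2 replicate 3, 0.0657 without 4 months replicate 1, 0.0528 without 4 months replicate 2 and 0.142 without 4 months replicate 3.

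Of the 2861 exonic bases of Ctgf, 665 are shared with Gm15270, a gene on the opposite strand, and whether the reads were counted by strand is not stated. The last exon of Ctgf (1364 bases), which shares no base with Gm15270, went from 1054 ± 316 to 1841 ± 529 RPKM. That is a 1.75-fold difference, close to that of the whole gene. In PND2 replicate 1 the first exon of Ctgf reached only 0.306 times the RPKM of the last, against 0.453 to 0.587 in the other libraries. The same library had the lowest such ratio for Cyr61 (0.362), Nov (0.116) and Wisp2 (0.626). For Wisp1 the lowest was in 4 months replicate 2 (0.0477), where the first exon held only 2 reads. PND2 replicate 1 also had the lowest balance of first to last exon over 4203 genes, with a median log2 ratio of -0.97 against -0.89 to -0.60 elsewhere. The part of this balance in the values of the CCN genes was not tested.

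Wisp1 (ENSMUSG00000005124, chr15:66891320-66923201, plus strand), a gene induced by WNT signalling in other settings, changed in the other direction and by the largest factor of the 10 genes. Its levels were 28.1, 45.7 and 35.7 RPKM at PND2 and 4.86, 4.36 and 3.48 RPKM at 4 months. Each library of 4 months was far below each of PND2. The mean was 8.63-fold lower at 4 months, 36.5 ± 8.86 against 4.23 ± 0.700 RPKM. The log2 fold change was -3.06 (SE 0.21, interval -3.55 to -2.58, limma adjusted p = 0.00011).

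Wisp2 (ENSMUSG00000027656, chr2:163820861-163833146, plus strand) encodes a CCN protein that lacks the C-terminal domain of the others. It measured 21.9, 57.3 and 49.0 RPKM at PND2 and 79.1, 37.9 and 82.2 RPKM at 4 months. The ages overlapped, since PND2 replicate 1 and 4 months replicate 2 each stood well below the other libraries of their age. The means were 42.7 ± 18.5 and 66.4 ± 24.7 RPKM, and the log2 fold change of 0.67 had an interval of -0.33 to 1.66 (limma adjusted p = 0.264). The value was 0.24 without PND2 replicate 1 and 1.03 without 4 months replicate 2.

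Per length, the order of the CCN genes was alike at both ages, save for neighbours that overlapped. At PND2 Ctgf was first, followed by Nov and Cyr61, whose libraries overlapped, and by Wisp2 and Wisp1, which overlapped too. At 4 months Ctgf was first, Cyr61 and Nov overlapped, and Wisp2 and Wisp1 each stood apart below them. The summed RPKM of the 5 genes was 975 to 1566 at PND2 and 2576 to 3679 at 4 months. Within that sum, the share of Cyr61 was 15.7, 15.5 and 14.8% at PND2 and 31.7, 28.3 and 27.2% at 4 months, and the share of Ctgf was 55.0 to 62.9% and then 35.3 to 48.4%. Neither share overlapped between the ages. Wisp1 made up 2.32 to 3.67% at PND2 and 0.0945 to 0.169% at 4 months, again without overlap. The shares of Nov (20.2 ± 4.67 and 27.2 ± 4.44%) and of Wisp2 (3.50 ± 1.61 and 2.06 ± 0.526%) overlapped.

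A ratio of RPKM values within a library does not depend on the library total, though it does depend on the exonic lengths of the genes compared. The level of Ctgf was 3.57, 4.05 and 3.72 times that of Cyr61 at PND2 and 1.11, 1.46 and 1.78 times at 4 months. By gene RPKM Ctgf thus remained the higher of the pair, with a smaller lead in every library of 4 months. This lead depends on the exons used. In 4 months replicate 1 the last exons of Ctgf and Cyr61 were at 1538 and 970 RPKM. Going 5′ to 3′, the inner exons there were at 627, 846 and 1908 RPKM for Ctgf and at 814, 1233 and 1489 RPKM for Cyr61. The level of Wisp2 was 0.781 to 1.37 times that of Wisp1 at PND2 and 8.68 to 23.7 times at 4 months. For 3 libraries against 3, the smallest 2-sided p of an exact permutation test is 0.1. It was reached by 10 of the 14 ratios and shares computed for the CCN, coactivator and TEAD genes (Benjamini-Hochberg adjusted 0.14). The exceptions were the shares of Nov (p = 0.2), Wisp2 (p = 0.3), Tead1 (p = 0.9) and Tead4 (p = 0.5) by the same exact test. Reaching the smallest p means only that the ages did not overlap. The 14 measures are not independent, since shares within a family add up to a fixed total and the ratios reuse the same genes. How often other genes or ratios reach it is not given here, so the number is a description only.

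**Figure D2:**
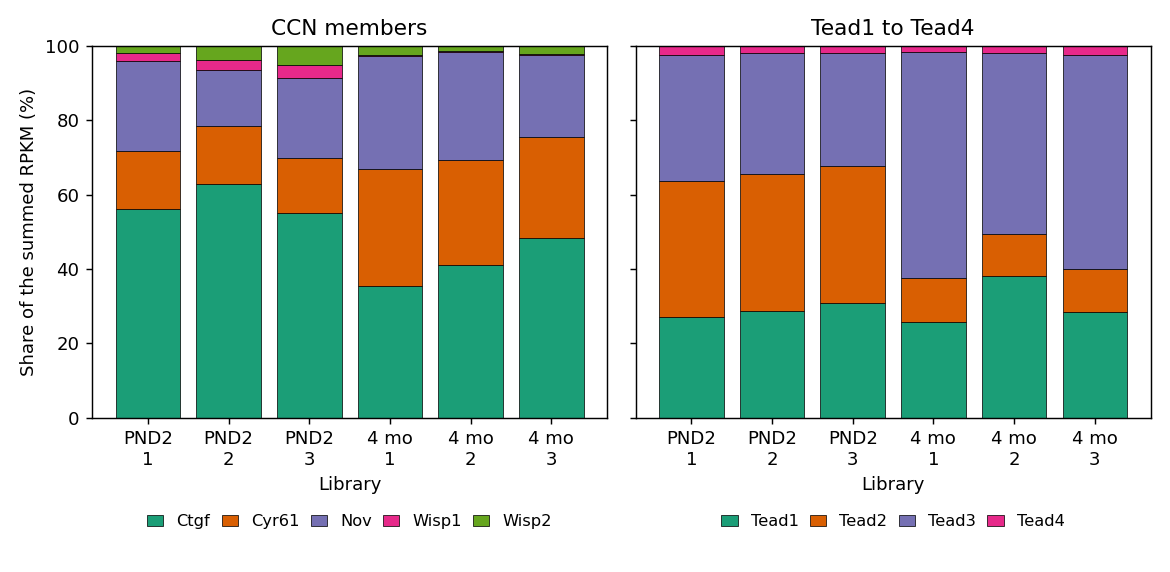
Stacked bars give, for each library, the share in percent of each CCN gene in the summed RPKM of the 5 CCN genes (left) and of each TEAD gene in the sum of Tead1 to Tead4 (right). The share of Cyr61 goes from about 15.3 to 29.0% and that of Tead2 from 36.7 to 11.6%.

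Neither coactivator passed the test. Yap1 (ENSMUSG00000053110, chr9:7931999-8004596, minus strand) was at 21.7, 26.8 and 21.7 RPKM at PND2 and at 25.6, 30.0 and 26.1 RPKM at 4 months, and the ages overlapped. Its mean was 23.4 ± 2.98 and 27.2 ± 2.36 RPKM, and its log2 fold change was 0.22 (interval -0.07 to 0.51, limma adjusted p = 0.204). On the opposite strand Gm20416 shares 116 of its 9257 exonic bases. Wwtr1, which encodes TAZ (ENSMUSG00000027803, chr3:57455649-57575910, minus strand), was at 68.2, 68.0 and 65.4 RPKM at PND2 and at 59.8, 60.0 and 64.0 RPKM at 4 months. All libraries of 4 months lay below those of PND2, by a small margin. The log2 fold change was -0.13 (interval -0.32 to 0.05, limma adjusted p = 0.235), and it was -0.012 when libraries were scaled by their median log2 ratio.

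These intervals leave room for a Yap1 level at 4 months of 0.955 to 1.43 times that of PND2, and for a Wwtr1 level of 0.801 to 1.04 times. By gene RPKM, Wwtr1 was the higher of the pair in every library. Its level was 3.15, 2.53 and 3.01 times that of Yap1 at PND2 and 2.33, 2.00 and 2.45 times at 4 months, without overlap. This lead depends on exonic length, since the 9257 bases of Yap1 include a stretch of 4800 bases at about 1.81 and 1.88 RPKM. Over the last exons alone, Yap1 was at 54.1, 62.5 and 50.5 RPKM at PND2 and at 62.1, 74.3 and 65.7 RPKM at 4 months. The last exon of Wwtr1 was at 71.7, 64.0 and 61.1 RPKM and then at 58.8, 62.2 and 65.0 RPKM. In every library of 4 months it lay below that of Yap1. The summed gene RPKM of Yap1 and Wwtr1 was 87.1 to 94.8 at PND2 and 85.5 to 90.1 at 4 months. These are mRNA levels, and the location and phosphorylation of the proteins, which set their activity, were not measured.

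Of the TEAD genes, Tead1 and Tead2 fell and Tead3 did not pass the test. Tead2 (ENSMUSG00000030796, chr7:45215753-45233635, plus strand), best known from early embryos and neural progenitors, was at 37.7, 48.1 and 43.1 RPKM at PND2 and at 8.0, 6.47 and 7.19 RPKM at 4 months. The ages were far apart. Its mean was 5.95-fold lower at 4 months, 7.22 ± 0.767 against 43.0 ± 5.23 RPKM (log2 fold change -2.56, SE 0.13, interval -2.87 to -2.24, limma adjusted p = 3.8e-05). Its exons share 4 bases with Cd37 on the opposite strand.

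Tead1 (ENSMUSG00000055320, chr7:112679318-112906807, plus strand), which is required for heart muscle development, was at 27.8, 37.7 and 36.2 RPKM at PND2 and at 17.5, 21.6 and 17.6 RPKM at 4 months. No library of 4 months reached the lowest of PND2. Its mean was 1.80-fold lower, 18.9 ± 2.34 against 33.9 ± 5.38 RPKM, and its log2 fold change was -0.84 (SE 0.15, interval -1.19 to -0.48, limma adjusted p = 0.0052). Tead3 (ENSMUSG00000002249, chr17:28331671-28350805, minus strand), known from the placenta, was at 34.7, 42.8 and 35.6 RPKM at PND2 and at 41.1, 27.6 and 35.9 RPKM at 4 months. The ages overlapped, and 4 months replicate 2 stood lowest of all. The log2 fold change of -0.12 had an interval of -0.51 to 0.26 (limma adjusted p = 0.593) and was 0.034 without 4 months replicate 2. The plot of changes by gene sets these intervals side by side.

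**Figure D3:**
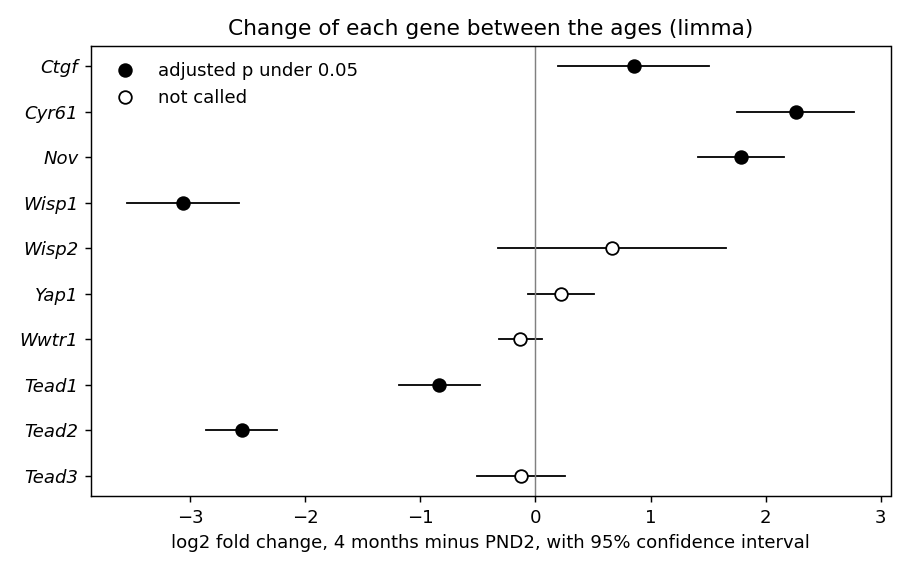
Log2 fold change of each of the 10 genes, 4 months minus PND2, with its 95% confidence interval from limma, filled where the adjusted p was under 0.05. The intervals of Wisp2, Yap1, Wwtr1 and Tead3 include 0, and that of Ctgf begins at 0.20.

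The make-up of the TEAD transcripts differed between the ages. By gene RPKM, the levels of Tead2, Tead3 and Tead1 overlapped at PND2. At 4 months Tead3 was above Tead1 and Tead1 above Tead2, with no overlap between neighbours. Tead4 was lowest at both ages. The order at PND2 depends on the exonic length used, and the shares below rest on gene RPKM too. Over the longest last exons, Tead2 was at 83.1, 98.9 and 81.5 RPKM at PND2. That was above Tead1 (34.5 to 45.4 RPKM) and Tead3 (41.6 to 52.8 RPKM) in every library. At 4 months these exons kept the order, with Tead3 at 46.3 ± 8.73, Tead1 at 23.4 ± 2.77 and Tead2 at 16.9 ± 1.97 RPKM. The share of Tead2 in the summed RPKM of Tead1 to Tead4 was 36.7 ± 0.0774% at PND2 and 11.6 ± 0.210% at 4 months. That of Tead3 was 33.8, 32.6 and 30.4% at PND2 and 60.8, 48.7 and 57.8% at 4 months. Neither overlapped. The share of Tead1 did overlap, at 28.9 ± 1.96 and 30.7 ± 6.48%. The sum of Tead1 to Tead4 was 103 to 131 RPKM at PND2 and 56.7 to 67.6 RPKM at 4 months. Tead1 was at 0.737 to 0.840 times the level of Tead2 at PND2 and at 2.18 to 3.34 times at 4 months.

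The exon values were used to ask whether an exon differed between the ages apart from the rest of its gene. Exons were taken as listed, so many overlap or lie inside one another and share reads, and their tests are not independent. Of 160 exons listed for the 10 genes, 150 were tested (limma diffSplice with voom weights on reads recovered from exon RPKM), and 1 was called. This is 0.667%, near the 0.562% of all 243348 exons tested, so the call is given as a description of that exon only. It was a stretch of 1089 bases of Tead3 (chr17:28335485-28336573) that spans an intron with short coding exons in it. It measured 21.5, 24.8 and 22.5 RPKM at PND2 and 16.0, 11.2 and 11.2 RPKM at 4 months. Relative to the other exons of Tead3, including those inside it, its log2 fold change was -0.83 (limma adjusted p = 0.0146). The call was lost without PND2 replicate 1, 2 or 3 and without 4 months replicate 3 (limma adjusted p = 0.0576 to 0.532), and also without weights (0.624). It held without 4 months replicate 1 or 2.

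Inside this stretch the GENCODE annotation (M21, GRCm38) places a pair of alternative coding exons of 63 bases each. The first (chr17:28336511-28336573) is used by 3 coding transcripts and the second (chr17:28336274-28336336) by 1. Tead1 has a similar pair, with 44 of 63 bases alike. The Tead3 pair is given because the ages overlapped at one and not at the other. Both are written 5′ to 3′ on the minus strand, with capitals at the 40 positions (63.5%) where they hold the same base.
Tead3 first exon: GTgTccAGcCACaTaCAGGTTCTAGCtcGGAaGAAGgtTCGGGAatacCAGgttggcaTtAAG
Tead3 second exon: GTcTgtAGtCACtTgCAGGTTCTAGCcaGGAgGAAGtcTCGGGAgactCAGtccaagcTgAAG

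The first exon was at 51.7, 57.7 and 52.6 RPKM at PND2 and at 72.2, 31.3 and 56.5 RPKM at 4 months, and the ages overlapped. The file lists the second exon with 8 further bases (71 in all), where it was at 29.3, 26.3 and 31.8 RPKM at PND2 and at 14.0, 9.46 and 8.27 RPKM at 4 months. This exon did not overlap between the ages but was not called (relative log2 fold change -1.38, limma adjusted p = 0.208). The ratio of the second to the first was 0.456 to 0.604 at PND2 and 0.146 to 0.302 at 4 months. This ratio was computed after the exon values had been seen and is given without a test. The rest of the stretch, 943 bases after the reads of the exons inside it were taken away, was at 18.8, 22.2 and 19.8 RPKM at PND2 and at 11.7, 10.1 and 8.13 RPKM at 4 months. The intron around the pair was thus lower at 4 months as well, and at that age the second exon stood at the level of the intron. Reads that cross an exon border may be counted in both places, so the rest is approximate. At Tead1, the pair carried 3 to 28 reads per exon and library, too few to compare.

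No exon of the other 9 genes was called. The lowest adjusted p among them was 0.967, for a 63-base exon of Tead2 (chr7:45220643-45220705) at 71.9 ± 14.0 RPKM at PND2 and 5.79 ± 4.23 RPKM at 4 months. For Tead1 the exon of 153 bases at chr7:112894312-112894464 came nearest, with a relative log2 fold change of -0.56 and levels of 47.3 ± 13.5 and 15.9 ± 2.87 RPKM. For Wisp1 it was the last exon (4047 bases), at 43.0 ± 9.59 and 5.17 ± 0.808 RPKM. The short exons of Yap1 with the lowest p held 0 to 6 reads per library. For Ctgf, Cyr61 and Nov the lowest unadjusted p over the exons was 0.671, 0.483 and 0.748.

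Other members of the same families were read from a list of 6 genes, of which 4 passed the filter on low values, and 3 were called (against 35.8% of all genes). Vgll3 and Vgll4 encode vestigial-like proteins that bind TEAD factors in place of YAP, and both rose. Vgll3 was at 15.6, 15.2 and 12.4 RPKM at PND2 and at 27.0, 20.0 and 20.5 RPKM at 4 months (log2 fold change 0.63, limma adjusted p = 0.0176). Vgll4 went from 12.7 ± 0.900 to 17.1 ± 0.460 RPKM (log2 fold change 0.43, limma adjusted p = 0.016). Tead4, the fourth TEAD factor, fell from 2.42 ± 0.233 to 1.17 ± 0.248 RPKM (log2 fold change -0.997, limma adjusted p = 0.0155). These calls were close to the threshold. Vgll4 was not called without PND2 replicate 2, 4 months replicate 1 or 4 months replicate 3 (limma adjusted p = 0.0558, 0.052 and 0.0534), nor Vgll3 without PND2 replicate 3 (0.0596). With the filter, floor and per-gene test of the study together, neither Vgll3 nor Tead4 was called. The remaining CCN gene, Wisp3, was at 0.251 ± 0.0879 and 0.171 ± 0.106 RPKM and was not called. Vgll1 and Vgll2 did not pass the filter. The median over the 4 tested genes was 0.00, against -0.14 for all genes.

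Of 23 Hippo kinases and upstream regulators, 1 rose and 7 fell, 34.8% of the list against 35.8% of all genes. Their median log2 fold change was -0.25. The division depended on the scaling, with 4 higher and 5 lower when libraries were scaled by their median log2 ratio. The largest fall was in Ajuba, a LIM protein that binds and inhibits the LATS kinases. It was at 37.0, 43.4 and 35.4 RPKM at PND2 and at 9.46, 8.22 and 9.16 RPKM at 4 months (log2 fold change -2.09, limma adjusted p = 0.00012). Mob1b, a LATS coactivator, followed with 12.4 ± 1.68 and 5.66 ± 0.995 RPKM (log2 fold change -1.12, limma adjusted p = 0.0029). Map4k4, a kinase that can act beside the MST kinases, fell from 64.1 ± 6.51 to 39.0 ± 2.38 RPKM (log2 fold change -0.71, limma adjusted p = 0.0024). Limd1, Wwc2, Ptpn14 and Rassf1 also fell, and are named after their values were seen. The gene that rose was Amotl2, an angiomotin that tethers YAP, at 25.4 ± 1.70 and 33.5 ± 4.41 RPKM (log2 fold change 0.39, limma adjusted p = 0.0412). It kept its call without 4 months replicate 1 and lost it without any other single library (limma adjusted p = 0.0582 to 0.134).

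Among the core kinases, Stk3 and Stk4 (MST) were not called, nor were Lats1 and Lats2, which are also named after their values were seen. Lats2 was at 19.8, 18.7 and 15.6 RPKM at PND2 and at 21.4, 22.5 and 25.8 RPKM at 4 months (limma adjusted p = 0.063) and Lats1 at 16.3 ± 1.08 and 16.8 ± 1.39 RPKM. The more abundant Mob1a, at 44.6 to 49.5 RPKM at PND2 and 51.9 to 54.1 RPKM at 4 months, and Wtip, at 40.1 ± 5.14 and 43.6 ± 6.33 RPKM, did not pass the test either. When 1 library was left out, the list gave 5 to 8 calls, with 5 without PND2 replicate 2 and 5 without 4 months replicate 3. Calls over all genes fell in these 2 fits too, to 6842 of 25280 and 6301 of 25305 genes tested, from 9273 of 25903.

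A list of 20 genes known as targets of YAP and TEAD in other cells, without Ctgf and Cyr61, had 9 genes that rose and 3 that fell. This is 60.0% called, against 35.8% of all genes, with a median log2 fold change of 0.42. F3, the tissue factor that starts coagulation, rose most, from 7.32, 5.13 and 5.77 RPKM at PND2 to 42.4, 33.4 and 31.3 RPKM at 4 months (log2 fold change 2.54, limma adjusted p = 0.00014). Dock5, a guanine nucleotide exchange factor, went from 1.87 ± 0.473 to 4.34 ± 0.570 RPKM (log2 fold change 1.19, limma adjusted p = 0.0072). The receptor tyrosine kinase gene Axl rose from 113 ± 9.89 to 200.2 ± 20.2 RPKM, and Ccdc80, which encodes a matrix protein, from 190.1 ± 18.1 to 340.4 ± 19.0 RPKM. On the log2 scale these rises were 0.82 and 0.84. Gadd45a, Arhgef17, Crim1, Rbms3 and Amotl2 also rose, and Ptpn14 fell, these being named after their values were seen.

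The target genes did not all move one way. Nt5e, an ectoenzyme that makes adenosine, went from 6.07 ± 2.94 to 2.68 ± 0.562 RPKM (log2 fold change -1.07, limma adjusted p = 0.0424). It kept its call without PND2 replicate 2 and lost it without any other single library (limma adjusted p = 0.053 to 0.113). Tgfb2, a growth factor of valve development, fell from 46.0 ± 7.18 to 24.6 ± 2.70 RPKM (log2 fold change -0.89, limma adjusted p = 0.003). Ankrd1, also a heart muscle gene, was the most abundant of the list. It was at 1363, 901 and 815 RPKM at PND2 and at 360, 955 and 362 RPKM at 4 months, and was not called (log2 fold change -1.002, limma adjusted p = 0.0899). Its highest library of 4 months, replicate 2, also had the highest summed level of cardiomyocyte markers at that age, 7930 RPKM. At PND2 the order was reversed, as those sums were 11942, 12260 and 12964 RPKM in replicates 1, 2 and 3. The part of heart muscle in the level of Ankrd1 was not tested.

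Of 11 receptors of CCN proteins, 7 rose and 1 fell, 72.7% called against 35.8% of all genes, with a median log2 fold change of 0.98. With the filter, floor and per-gene test of the study together, 3 rose and 1 fell, where 4082 of all 19971 genes tested were called. Itgb1, an integrin beta chain, was the most abundant, at 746 ± 25.9 and 711 ± 68.9 RPKM, and was not called. Itgb5, a partner of the alpha V chain, was at 96.4, 141 and 126 RPKM at PND2 and at 309, 248 and 306 RPKM at 4 months (log2 fold change 1.26, limma adjusted p = 0.0014). Itga5, the fibronectin receptor chain, rose from 109 ± 8.13 to 162 ± 25.2 RPKM (log2 fold change 0.56, limma adjusted p = 0.0135, and 0.0535 without PND2 replicate 3). The endocytic receptor gene Lrp1, whose product also binds Ctgf protein, was at 44.3, 67.8 and 55.1 RPKM at PND2 and at 183, 159 and 190 RPKM at 4 months. These did not overlap (log2 fold change 1.68, limma adjusted p = 0.0004).

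Itgb2, a leukocyte integrin chain, had the largest rise among the receptors, from 2.42 ± 0.461 to 11.2 ± 0.360 RPKM (log2 fold change 2.18, limma adjusted p = 0.00019). Itgam, Itgb3 and Sdc4 rose as well and are named after their values were seen. Itgam, the partner of Itgb2 on macrophages, is listed under 2 gene models that share reads, and the more abundant was used. Itga6, a laminin receptor chain, fell from 19.6 ± 2.39 to 9.01 ± 1.76 RPKM (log2 fold change -1.13, limma adjusted p = 0.0024). The plot of the pathway lists shows each gene tested.

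**Figure D4:**
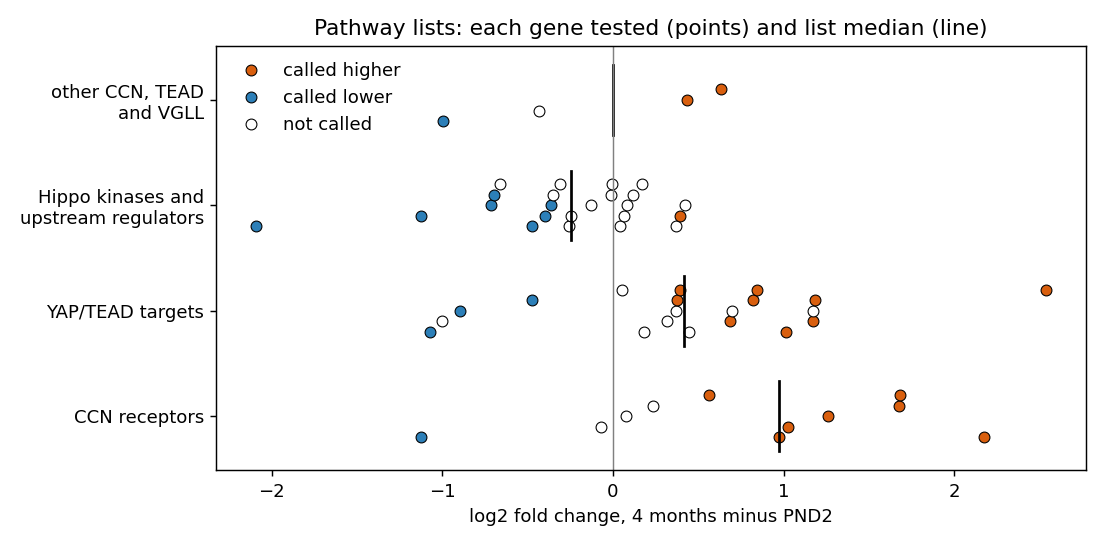
Log2 fold changes, 4 months minus PND2, of the genes tested in 4 lists, coloured where the limma adjusted p was under 0.05, with a line at each list's median. The medians are 0.00, -0.25, 0.42 and 0.98 for the other CCN, TEAD and VGLL genes, the Hippo regulators, the targets and the receptors.

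Marker mRNAs of several cell types differed with age too, and their part in these results was not tested. The counts below are of genes called, where 14.7% of all genes tested were higher and 21.1% lower at 4 months. The labelled tissue carried valve interstitial markers at both ages, with 1 of 6 higher and 3 lower at 4 months and a summed level of 5092 to 5699 RPKM at PND2 and 6738 to 8560 RPKM at 4 months. All 6 smooth muscle markers were higher at 4 months, with sums of 7178 to 8268 and then 16547 to 27656 RPKM. Cardiomyocyte markers were abundant at both ages, summing to 11942 to 12964 and 5085 to 7930 RPKM, and 4 of 8 were lower. Of endothelial markers all 6 were lower, with sums of 321 to 444 and 192 to 215 RPKM. Macrophage markers were higher for 5 of 6, with sums of 131 to 162 and 290 to 362 RPKM, beside the rise of Itgb2 and Itgam. Adipocyte markers were higher for 5 of 6, with a median log2 fold change of 7.52 over the list. Their sums of 69.3 to 152 and 156 to 529 RPKM were mostly Fabp4 at PND2, which was not called, and Cidec was listed at 0 in all PND2 libraries. Of the cartilage markers, 5 of 6 were tested, with 1 higher and 2 lower and sums of 92.1 to 195 and 195 to 693 RPKM, and Matn1 was at or near 0 in every library.

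For each of the 10 genes, the gene with the most similar course over the 6 libraries was sought among 10603 other protein-coding genes with a mean of at least 5 RPKM, by the root mean square distance of centred log2 values. The distance is a description, and what such genes share was not examined. Nearest to Nov was Itgbl1 at a distance of 0.0877, with 38.3 ± 3.01 RPKM at PND2 and 132 ± 11.8 RPKM at 4 months. Nearest to Cyr61 was Arid5a (0.157), nearest to Ctgf was Fxyd5 (0.169) and nearest to Wisp2 was Il17rc (0.246). Among genes that fell, Wisp1 was followed most closely by Lmnb1 (0.175), at 33.9 ± 5.31 and 4.15 ± 0.0904 RPKM. Tead2 was followed by Megf6 (0.129), and Tead1 by Uck2 (0.0578). For the genes that were not called, the nearest were Ldah for Yap1 (0.0349), Coa3 for Wwtr1 (0.0261) and Glipr1 for Tead3 (0.0474).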

How the data were processed

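Paired reads were filtered and trimmed by the authors, aligned to mm10 with TopHat2 2.1.0 and counted on Ensembl genes and exons with easyRNASeq in R 3.2.2, per the labels and the study's methods. The authors deposited RPKM values per gene and per exon, before their read minimum and floor. Whether counting used strand is not stated. Whole reads were recovered from RPKM, exonic length and a library total inferred from the smallest exon values. This worked for 100% of gene and exon values above 0 (within 0.01 of a read). Summed over genes, the recovered reads exceeded that total in every library. The ages were compared with limma 3.58.1 (R 4.3.3) for genes that reached 0.1 RPKM in 3 libraries. Values were log2(RPKM + 0.1), eBayes used a trend, tests were 2-sided, and p-values were adjusted by Benjamini-Hochberg over all genes. This scale understates changes of genes with low RPKM. Exons that reached 1 RPKM in 3 libraries were tested with limma diffSplice on voom-weighted reads, and single ratios with exact permutation tests. The steps were tested on simulated data.

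The 10 genes and the lists were chosen with earlier results of these data known. All 10 are named, and of each pathway list the 3 most abundant genes and the 2 largest called changes in each direction. Of each marker list only counts and sums are given. Nothing states whether the pools shared a litter or a day of preparation, so such effects cannot be told apart from age. The p-values set the difference between the ages against the spread between pools. Other pseudocounts, filters, scalings, tests and left-out libraries were alternatives. The last exon of Ctgf alone was added after the data were seen. Tables and figures used Python 3.11.15, numpy 2.4.6, pandas 2.3.3 and matplotlib 3.10.9.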

Additional observations from a re-analysis of the deposited data

How the results depend on the processing

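Of the 10 genes, 5 or 6 were called under every alternative, and Cyr61, Nov, Wisp1, Tead1 and Tead2 kept their call and direction in all of them. Tead1 kept its call only just with the filter, floor and per-gene test of the study (per-gene test adjusted p = 0.04999). Ctgf lost its call with a pseudocount of 1 (limma adjusted p = 0.0509) or 0.01 (0.0522), without a filter (0.0731), without a trend (0.0814) and with the per-gene test of the study, its floor and its minimum of reads (0.146). The cause was not tested. Over the last exon alone, an alternative chosen after seeing the data, its log2 fold change was 0.81. The log2 fold change of Tead3 ran from -0.25 to 0.034 when 1 library was left out, and turned positive without 4 months replicate 2. The filter, floor and test of the study, applied together, called 4082 of 19971 genes tested, instead of 9273 of 25903. They called 4 CCN receptors instead of 8 and 1 of the other CCN, TEAD and VGLL genes instead of 3. Leaving out 1 library gave 5 to 8 Hippo regulators, while 6301 to 8581 of all genes were called. The difference in the share of Tead1 then lay between -1.85 and 4.28 percentage points and that of Tead4 between -0.424 and 0.0311 points. Member exons called numbered 3 without weights and 0 to 2 when 1 library was left out. Over all exons the calls were 3197 and 604 to 2057.

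Whether same-numbered libraries form pairs is not stated, and they were not paired. Their deviations correlated with r = 0.044, -0.061 and -0.160. These deviations were taken from the mean of 3 libraries per age, so the values cannot show that pairing is absent. With the replicate block 7167 genes were called, 5 of the 10 genes (Ctgf lost its call, limma adjusted p = 0.0964), 1 of the other CCN, TEAD and VGLL genes (Vgll3, with Vgll4 and Tead4 lost) and 0 member exons. Over all exons the block gave 1242 calls, against 1367.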
